A study of Homo sapiens with 6 samples.

Results

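The islands described here are those at 8 genes of the MLL-AF9 leukaemia programme: the fusion partners KMT2A (also called MLL) and MLLT3 (also called AF9), and HOXA9, HOXA10, MEIS1, MEF2C, MYB and CDK6, which are known to be kept active by the fusion. The islands were taken by position alone, at any fold, but the genes were chosen with earlier results of these data known. An island is a stretch of the genome in which the precipitated DNA was enriched over input DNA, and an island was assigned to a gene when it overlapped the gene's interval in the genome build hg19 or lay within 5 kb of it, the nearer gene taking it where both were in reach. The intervals were known to about 10 kb. By this rule 10 of the 32760 islands (0.0305%) lay at 4 of the 8 genes: MEF2C had 5, MLLT3 had 3, and MYB and CDK6 had 1 each. KMT2A, HOXA9, HOXA10 and MEIS1 had none. Their log2 fold changes of IP over input ran from 0.17 to 0.56, with 4 of the 10 above the median of all islands (0.39). None reached the log2 fold change of 1 that defines an NFATc2 peak, but only 1.58% of all islands did, so a count of 0 in 10 does not set them apart.

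The material was THP-1, a human monocytic acute myeloid leukaemia (AML) cell line that carries MLL-AF9. It was left untreated, so all libraries share 1 line, 1 genotype and 1 condition. Chromatin was fixed with formaldehyde at 1% for 10 min, and 3 NFATc2 IP libraries, precipitated with a rabbit monoclonal antibody against NFAT1 (another name of NFATc2) from 11000000 cells each, were set against 3 Input DNA libraries of sheared chromatin that was not precipitated. All 6 libraries were pooled in 1 call of islands, so that a value per replicate and a spread between replicates cannot be given, and the list holds no expression by which the cell label could be checked. The pooled reads in each island were worked out from its deposited fold and p. The 10 islands held a median of 168 IP and 229 input reads, and the whole list 148 and 198. Intervals below are exact 95% counting intervals of these pooled reads and cover counting error only.

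KMT2A encodes a histone methyltransferase that binds at active genes in blood stem cells. In MLL-AF9 its first part is joined to the last part of AF9, which binds the transcription elongation machinery and the methyltransferase DOT1L, and the fusion protein holds a stem-cell programme active in myeloid cells. NFATc2 is a transcription factor that enters the nucleus on calcium signals and binds DNA at a core of the letters GGAAA.

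Distances below run from 1 start per gene, the outer bound of its approximate interval. Inner starts, such as those of MEF2C, were not placed against the islands. None of the 8 outer starts lay within an island. For this reason the sequences around 3 starts are shown, from 250 bases before to 50 bases after the start (RefSeq, GRCh38.p14; these positions are of another build than the islands). KMT2A (chr11:118436242-118436541, plus strand) and MLLT3 (chr9:20622450-20622749, minus strand) are the fusion partners. MYB (chr6:135181058-135181357, plus strand) is the gene with an island closest to its outer start. Capitals mark GGAAA or its reverse complement TTTCC.
KMT2A: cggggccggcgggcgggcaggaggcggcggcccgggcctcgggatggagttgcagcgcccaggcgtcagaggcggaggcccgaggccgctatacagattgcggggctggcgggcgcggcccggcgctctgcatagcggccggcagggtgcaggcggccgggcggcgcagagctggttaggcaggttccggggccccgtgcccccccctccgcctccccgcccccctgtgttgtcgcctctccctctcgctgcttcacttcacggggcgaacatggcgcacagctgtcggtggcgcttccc
MLLT3: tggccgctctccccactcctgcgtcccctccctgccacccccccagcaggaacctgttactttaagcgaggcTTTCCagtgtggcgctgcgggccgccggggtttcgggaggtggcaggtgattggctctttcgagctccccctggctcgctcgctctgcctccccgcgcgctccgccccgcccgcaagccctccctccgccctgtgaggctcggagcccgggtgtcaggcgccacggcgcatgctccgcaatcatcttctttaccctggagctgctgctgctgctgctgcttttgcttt
MYB: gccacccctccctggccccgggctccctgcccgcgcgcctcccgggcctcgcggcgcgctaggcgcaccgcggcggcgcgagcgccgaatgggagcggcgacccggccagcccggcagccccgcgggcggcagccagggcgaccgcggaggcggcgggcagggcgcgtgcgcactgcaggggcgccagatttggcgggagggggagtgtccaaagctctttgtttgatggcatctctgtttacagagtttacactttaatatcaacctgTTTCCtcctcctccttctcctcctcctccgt
The KMT2A window held no such match, and the MLLT3 and MYB windows held 1 each. Over the 16 starts that RefSeq lists for the 8 genes, 11 windows held a match (68.8%), beside 61.2% of all 35116 windows of 300 bases in the same table. MEF2C alone gave 7 of these starts and 6 of the matches, and counted by gene 5 of the 8 had a match. The windows of starts of the same gene did not overlap, and a match is a description of letters and not a binding site. The sequence under the islands was not read, as no hg19 genome was used.

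The fusion partners differed from each other. KMT2A, on the plus strand of chromosome 11 from about 118310001 to 118400000, lay in a stretch of 264.6 kb without an island. The nearest island before its start ran from 118272201 to 118273600, 36.4 kb away, with 75 IP reads, 68 input reads (log2 fold change 0.97, interval 0.48 to 1.47). The nearest beyond its end, from 118538201 to 118544400, was 138.2 kb away and had a log2 fold change of 0.37 (0.081 to 0.66). Both are outside the distance of 5 kb and are not counted for KMT2A. Stretches without an island are common on this chromosome, which had 2.97 islands per Mb. Of windows of 100 kb, the width of the KMT2A interval with its margins, 44.5% held an island over all chromosomes and 17.4% on chromosome 11.

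MLLT3, on the minus strand of chromosome 9 from about 20340001 to 20620000, had its 3 islands at its last part, the end of the gene that contributes the AF9 portion of the fusion protein in MLL-AF9 leukaemias. The outermost, from 20326601 to 20338200, lay 1.8 kb beyond the end of the approximate interval. It held 344 IP reads and 508 input reads, for a log2 fold change of 0.27 (0.068 to 0.47, FDR 0.00117). The second, from 20344801 to 20351600, held 230 IP reads and 309 input reads, a log2 fold change of 0.41 (0.15 to 0.66; FDR 0.000107). The third, from 20352801 to 20362800, held 308 IP reads and 486 input reads, with a log2 fold change of 0.17 (-0.037 to 0.38; FDR 0.0314). The islands were wide for the list, at 11600, 6800 and 10000 bp against a median of 4800 bp, and all 3 held more input reads per kb (43.8, 45.4 and 48.6) than the median island (42.1).

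Within MLLT3 the islands stopped at 20362800. The 22.8 kb at the end of the gene were covered to 73.7%, and the other 257.2 kb, which is 91.9% of the gene and includes its start, had no island. The stretch without an island went on past the start to 20641000, 278.2 kb in all, and the island that ended it, from 20641001 to 20644800, had 107 IP reads, 93 input reads, for a log2 fold change of 1.03 (0.62 to 1.45). It lay 21 kb before the start and is not counted for MLLT3. On either side of the gene the numbers were unlike: in the 1 Mb beyond its end there were 53 islands, the outermost of the 3 included, and in the 1 Mb before its start there was 1. Over 5 Mb the counts were 208 and 3. The median input reads per kb were 45.8 in the 208 islands and 26.4 in the 3, and the median log2 fold changes 0.35 and 0.74. Input reads outside islands are not in the list, so their part in this change along MLLT3 was not tested, nor was the place of the break in the gene in THP-1. Of windows of 290 kb, 60.6% held an island over all chromosomes, 39.2% held 3 or more, and on chromosome 9 these shares were 32.8% and 19.3%. Stretches of at least 278.2 kb made up 55.8% of all sequence between islands.

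**Figure D1:**
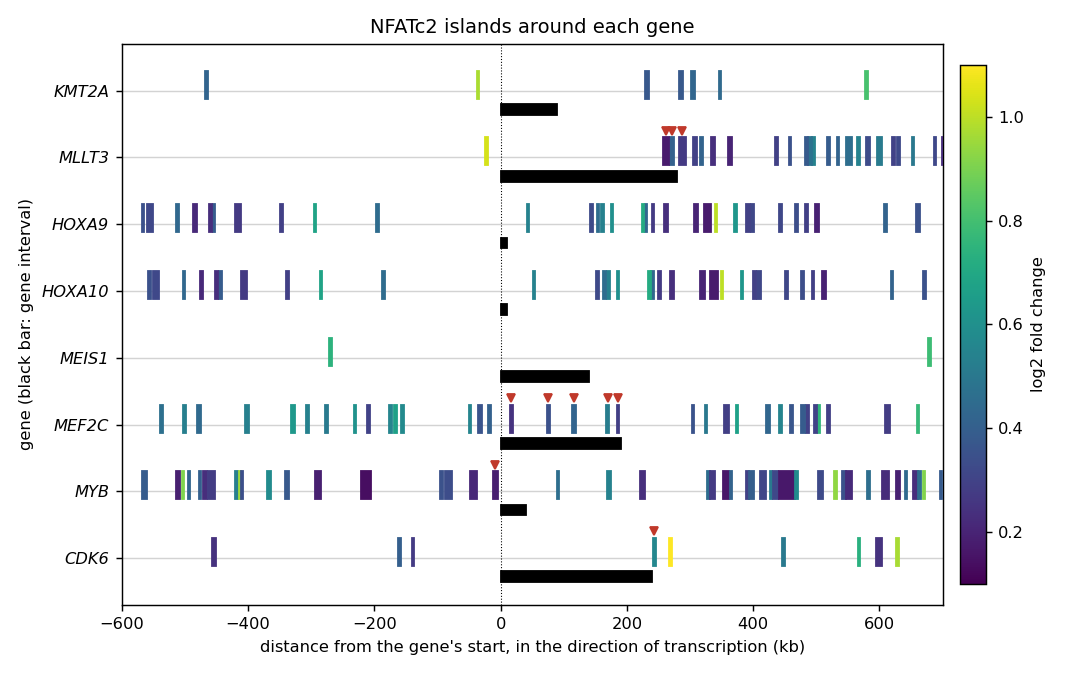
Islands (coloured bars, by log2 fold change) around the 8 genes, by distance from the gene's start in the direction of transcription in kb (x axis). Black bars are the gene intervals, red triangles mark the 10 islands at the genes, and islands under 4 kb are drawn 4 kb wide. The 3 MLLT3 islands sit at the end of the gene, the 5 MEF2C islands along it, and KMT2A, HOXA9, HOXA10 and MEIS1 have none.

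HOXA9, HOXA10 and MEIS1 encode homeodomain transcription factors that act together and are the best known targets of MLL fusions. HOXA9 and HOXA10 lie side by side on the minus strand of chromosome 7, near 27200001 and 27210001, in 1 stretch of 236.2 kb without an island. The island on the lower side, from 27165401 to 27168800, was 31.2 kb from HOXA9 and 41.2 kb from HOXA10, with 109 IP reads, 133 input reads, for a log2 fold change of 0.54 (0.17 to 0.92). The one on the higher side, from 27405001 to 27407200, was 195.0 and 185.0 kb away, with a log2 fold change of 0.45 (0.028 to 0.87). The surroundings were not poor in islands, with 30 in the 1 Mb below HOXA9 and 21 in the 1 Mb above it. The genes are short, and only 21.2% of windows of 20 kb held an island, 21.0% on chromosome 7, so that a short gene without an island is the usual case in this list.

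MEIS1, which encodes the cofactor of the HOXA proteins, lay on the plus strand of chromosome 2 from about 66660001 to 66800000 in a stretch of 946 kb without an island, the longest among the 8 genes. The nearest islands were 269 kb before its start, with 96 IP reads, 102 input reads (log2 fold change 0.74, 0.33 to 1.16), and 537 kb beyond its end, with 120 IP reads, 124 input reads (log2 fold change 0.78, 0.41 to 1.16). Here the wider region was sparse too: 10 islands lay in the 5 Mb below MEIS1 and 8 in the 5 Mb above it, or 2.0 and 1.6 per Mb, where chromosome 2 as a whole had 14.6 per Mb. Of windows of 150 kb, 51.1% held an island, and 63.3% on chromosome 2. Stretches of at least 946 kb made up 35.6% of all sequence between islands.

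MEF2C, MYB and CDK6 were the targets with islands. MEF2C encodes a MADS-box transcription factor of early lymphoid and myeloid progenitors and lies on the minus strand of chromosome 5 from about 88010001 to 88200000. All 5 of its islands overlapped the gene and together covered 12.4% of it, 14.8 to 187 kb after the start with 12.2 to 53.8 kb between them. In the direction of transcription, the first, from 88180601 to 88185200, held 146 IP reads and 219 input reads with a log2 fold change of 0.25 (-0.065 to 0.56; FDR 0.0344). The second, from 88121601 to 88126800, held 161 and 225 reads, a log2 fold change of 0.35 (0.048 to 0.65; FDR 0.00359). The third, from 88080801 to 88086800, held 175 and 233 reads, a log2 fold change of 0.42 (0.13 to 0.71; FDR 0.00043).

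The log2 fold change was highest in the fourth MEF2C island, from 88028401 to 88033000, at 0.52 (0.19 to 0.85; FDR 0.000116) with 141 IP reads and 175 input reads. The fifth, from 88013001 to 88016200 at the end of the gene, held 111 and 162 reads with a log2 fold change of 0.29 (-0.075 to 0.64; FDR 0.0328). The counting intervals of the 5 islands all overlapped. Islands were as frequent on one side of MEF2C as on the other, with 23 in the 1 Mb below it and 23 in the 1 Mb above it. Of windows of 200 kb, 55.1% held an island and 19.1% held 5 or more, and on chromosome 5 these shares were 80.4% and 23.7%. RefSeq lists 7 starts for MEF2C, and whether an island lies at one of the inner starts was not tested, since their hg19 positions were not used.

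MYB encodes a transcription factor of immature blood cells and lies on the plus strand of chromosome 6 from about 135500001 to 135540000. Its 1 island, from 135487201 to 135496200, did not overlap the gene but ended 3.8 kb before its start. Among the 8 genes, with only the outer start of each taken, it was the island closest to a start. It held the most reads of the 10, 350 IP reads against 548 input reads, and one of the lowest log2 fold changes, 0.19 (-0.013 to 0.38; FDR 0.0172). Its 60.9 input reads per kb were above those of 97.6% of all islands or equal to them. The start of MYB is given to about 10 kb, so whether the island lies within 5 kb of the exact start is not settled. The MYB gene itself had no island. Its region held 32 islands in the 1 Mb below the gene, the MYB island included, and 37 in the 1 Mb above it. Chromosome 6 had 30.6 islands per Mb, and windows of 50 kb held an island in 33.8% of cases over all chromosomes and in 70.9% on chromosome 6.

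CDK6 encodes a cyclin-dependent kinase that drives cells from G1 into S phase and lies on the minus strand of chromosome 7 from about 92230001 to 92470000. Its 1 island, from 92223801 to 92229400, lay 0.6 kb beyond the end of the approximate interval, with 142 IP reads and 171 input reads. This interval is 240 kb long, against a RefSeq length of 231.7 kb. Whether the island lies within 5 kb of the exact end of CDK6 is therefore not settled. The log2 fold change of the island, 0.56 (0.23 to 0.89, FDR 3.42e-05), was the highest of the 10, at the 79.2nd percentile of all islands. Its 30.5 input reads per kb were the lowest of the 10. Among all islands this density stood at the 2.7th percentile, and its 25.4 IP reads per kb at the 2.6th. The interval of CDK6 itself had no island, and the stretch without one ran for 378.4 kb from the end of this island to 137.8 kb before the CDK6 start. In the GRCh38 annotation FAM133B is the protein-coding gene next to CDK6 on that side, and whether the island lies nearer to FAM133B in hg19 was not tested. Of windows of 250 kb, 58.5% held an island, and 65.2% on chromosome 7. Stretches of at least 378.4 kb made up 50.4% of all sequence between islands.

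**Figure D2:**
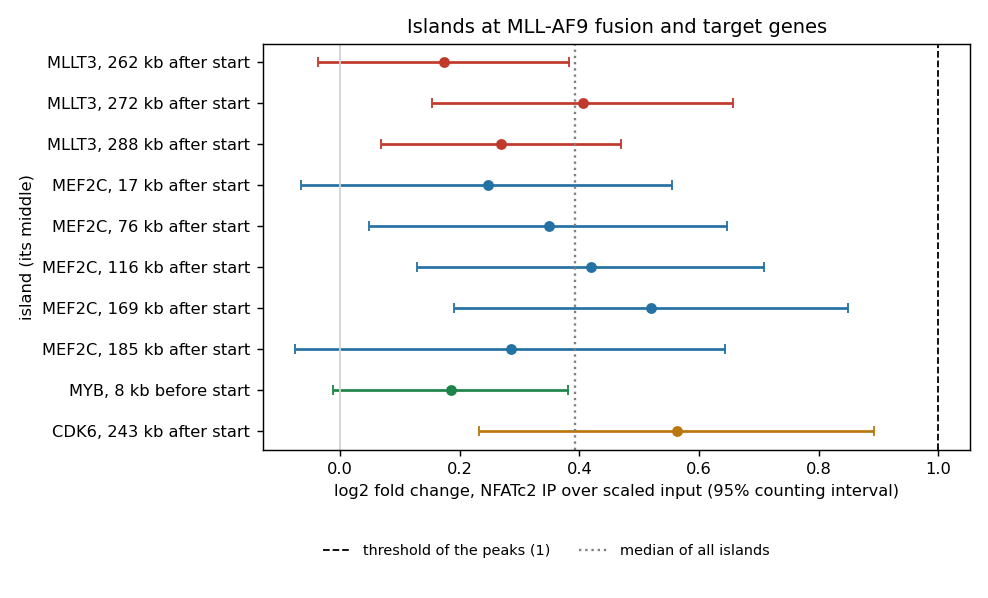
Log2 of the fold enrichment of IP over input (x axis) in each of the 10 islands, each named by its gene and the distance of its middle from the gene's start (y axis), with lines for the 95% counting interval. All 10 points lie between 0.17 and 0.56, left of the dashed threshold at 1, and all intervals but those of MYB and of the MLLT3 island nearest the start reach the dotted median of all islands (0.39).

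Among the 10 islands the order of log2 fold changes, from the CDK6 island at 0.56 and the fourth MEF2C island at 0.52 down to MYB at 0.19 and the third MLLT3 island at 0.17, was not detectable beyond counting error. Of 45 pairs, 1 differed in the ratio of IP to input reads (Fisher's exact test, two-sided, p = 0.0488) and 0 after Benjamini-Hochberg adjustment over the 45 pairs (smallest adjusted p = 0.82 from the same exact test). The largest difference, between CDK6 and the third MLLT3 island, was 0.39 ± 0.19 (SE from counting). This comparison was chosen after the values were seen.

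For none of the 4 genes did the reads summed over its islands pass the test against the rest of the list. The 882 IP and 1303 input reads of MLLT3 gave a log2 fold change of 0.27 (0.14 to 0.39) against 0.37 in the 32750 islands outside the 8 genes, a difference of -0.098 with an interval from -0.22 to 0.025 (Fisher's exact test, two-sided, adjusted p = 0.24 over 4 genes). MEF2C, with 734 and 1014 reads, stood at 0.37 and differed by -0.0015 (-0.14 to 0.14; adjusted p = 1.0, exact test), but against islands within 5 Mb by -0.11 (-0.25 to 0.032; adjusted p = 0.29, exact test). MYB differed by -0.18 (-0.38 to 0.011; adjusted p = 0.24, exact test) and CDK6 by 0.20 (-0.12 to 0.52; adjusted p = 0.31, exact test). Against islands within 5 Mb the CDK6 difference was 0.040 (-0.29 to 0.37; adjusted p = 0.82, exact test). The intervals for MYB and CDK6 are wide, so that differences of up to 0.38 and 0.52 on the log2 scale are not excluded by these reads. The libraries are pooled and every listed island was selected for enrichment, so the test speaks of counting error in listed islands only.

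Set beside the whole list, the 10 islands had a median log2 fold change of 0.32 against 0.39 over all islands. Above a log2 fold change of 0.5 there were 2 of the 10, the CDK6 island and the fourth MEF2C island, and 29.4% of all islands. The lower counting bound was above 0 in 6 of the 10, against 75.2% of all islands. The caller takes the scaled input as known without error, so an island can pass its FDR while an interval that counts the error of both kinds of read reaches 0, as for MYB, 2 islands of MEF2C and 1 of MLLT3. Wider than the overall median were 7 of the 10, and denser in input reads (per kb) than the overall median were also 7.

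Between 5 and 20 kb from the genes there was 1 more island, 14.8 kb before the MEF2C start, with a log2 fold change of 0.41 (0.12 to 0.68). Over both sides of the 8 genes the nearest islands that were not counted were 14 different ones, this one included. Those beside MLLT3, MEF2C, MYB and CDK6 were added after their values were seen, so their share past a threshold is no test. Of the 14, 2 passed a log2 fold change of 1, which 1.58% of all islands did, and both lay more than 20 kb away. One is the island 21 kb before the MLLT3 start, described above. The other, on chromosome 7 from 92200201 to 92203200, lay 26.8 kb beyond the end of CDK6 with 103 IP reads, 79 input reads, for a log2 fold change of 1.21 (0.78 to 1.66). Both had few input reads per kb, 24.5 and 26.3, against 42.1 in the median island. The nearest uncounted island of MYB lay 38.2 kb before its interval, with a log2 fold change of 0.21 (0.010 to 0.41).

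**Figure D3:**
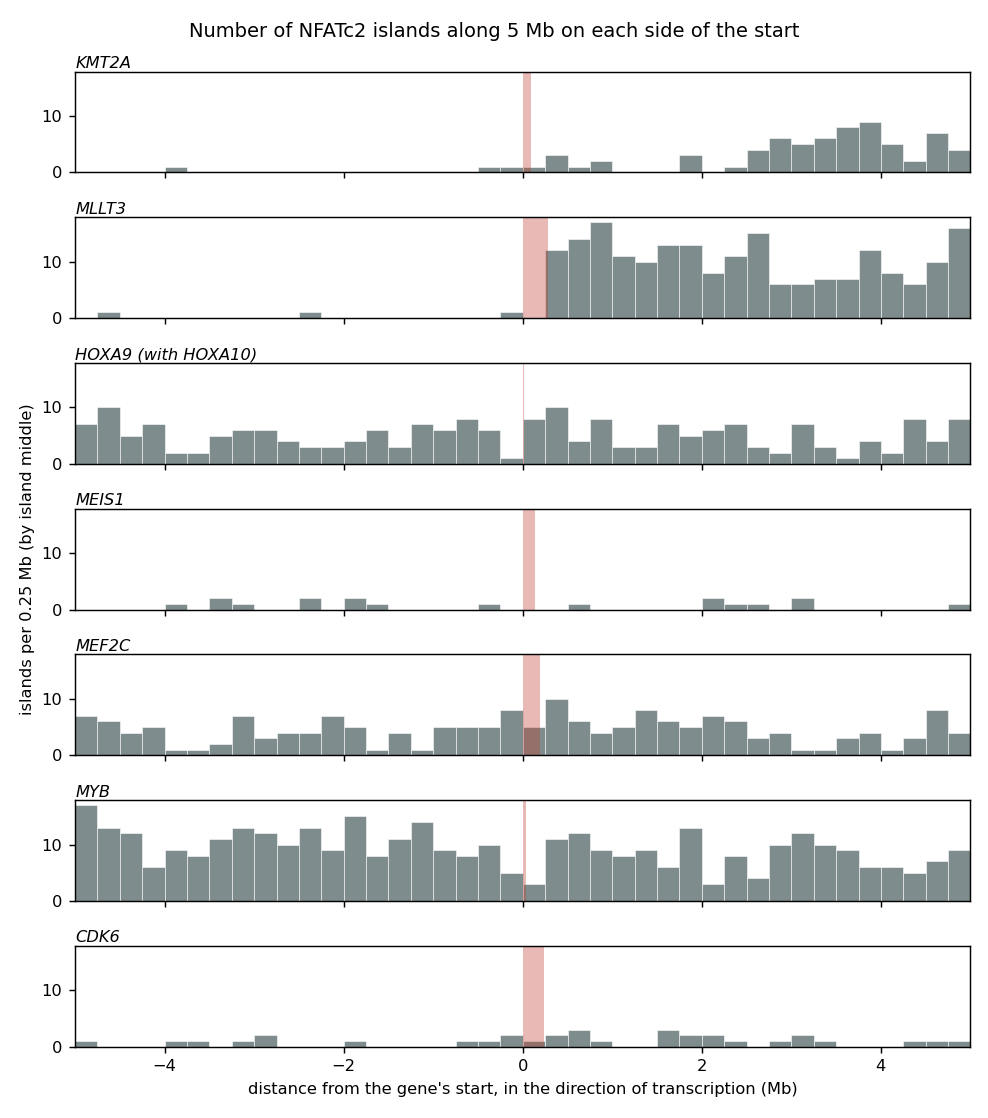
Number of islands per 0.25 Mb (y axis) along 5 Mb on each side of the start of each gene, in the direction of transcription (x axis, Mb), with the gene interval shaded red and HOXA10 shown with HOXA9. At MLLT3 the count changes within the gene, from 3 islands in the 5 Mb before it to 208 in the 5 Mb beyond it. At KMT2A there were 3 islands in the 5 Mb before the gene and 68 in the 5 Mb beyond it.

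The surroundings of the genes differed in their number of islands. At KMT2A the 1 Mb before its start held 2 islands and the 1 Mb beyond its end 7, so that 7 of the 68 islands in the 5 Mb beyond KMT2A were within 1 Mb of it. At HOXA9 and MEF2C the counts below and above the gene were close over 5 Mb (103 and 101, 90 and 85). At MYB they were 213 below, the MYB island included, and 160 above over 5 Mb, the reverse order of the 32 and 37 within 1 Mb. Around CDK6 they were low on both sides, with 26 below it, the CDK6 island included, and 11 above it. Neighbouring islands are not independent, so these counts are given with no test.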

How the data were processed

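ChIP-seq for NFATc2 was analysed from 1 list of islands, made by the authors from 3 NFATc2 IP and 3 Input DNA libraries together with epic2 at FDR below 0.05. Beside SICER 0.0.52, the submitters' notes list BWA 0.7.17.1 and SAMtools 1.3.1, Trimmomatic 0.36.5, the build hg19 and ChIPseeker 1.18.0. The list, without a header, gives each island's bounds in steps of 200 bp. The score deposited by the authors was, for all 32760 islands, their log2 value times 100 without its decimals. The log2 values deposited by the authors are fold changes, the caller's ratio of IP reads to input reads after scaling. The authors also deposited −log10 values of the caller's Poisson p and FDR. Blacklisted regions were not taken out. Positions were written counted from 1.

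Reads per island were recovered from fold and p by the Poisson formula of the caller with 1 factor, 0.5618, from input to expected IP reads; input reads were whole within 0.02 in 32750 islands and in all 10 at the genes. The recovery was tested on simulated data. Counting intervals are Clopper-Pearson intervals of the IP share at 95%, on the log2 fold scale; standard errors are by the delta method, and intervals of differences are 1.96 standard errors. Summed reads were compared by Fisher's exact test with Benjamini-Hochberg adjustment over genes. Windows of a gene's width plus 5 kb on each side were laid end to end over each chromosome up to its last island.

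The genes, their approximate hg19 intervals and all tests were chosen with earlier results of these data known. HOXA9 and HOXA10 were given as single positions and taken as 10 kb each. Only the 8 genes competed for an island, so another gene may be nearer. Strand, neighbours and promoter sequences are from RefSeq (GRCh38.p14), matched by symbol for all 8 genes, and no position was carried between builds. Named were all 8 genes with all their islands and the nearest islands of genes with none; the uncounted neighbours of the other genes were added after their values were seen. Other genes of the pathway (MEN1, DOT1L, PBX3, FLT3) were not analysed here, since their hg19 positions were not in the sources used. Alternatives were another distance, a stricter FDR, merging of islands, other fold thresholds, other comparison islands and other windows. Python 3.11.15, numpy 2.4.6, pandas 2.3.3, scipy 1.17.1 and matplotlib 3.10.9 were used.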

Additional observations from a re-analysis of the deposited data

How the results depend on the processing

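With only islands that overlap a gene, 2 genes (MLLT3 and MEF2C) had an island instead of 4, as the MYB and CDK6 islands lie outside the approximate intervals. At FDR 0.01 the islands at the genes were 6 of the 10 (60%), against 74.8% of all islands, with a median log2 fold change of 0.41. At FDR 0.001 they were 4 with a median of 0.47, and the share of all islands there was not taken. The median FDR was 0.00135 over all islands and 0.00238 in the 10, both above this threshold. In both sets fewer islands therefore passed it than did not. At these FDRs no median of log2 values was taken over all islands. The 0.41 and 0.47 therefore cannot be set against the 0.39 of the unfiltered list. MYB had none at either FDR, and MLLT3, MEF2C and CDK6 had at least 1. The count of islands above the fold threshold was 0 in all alternatives run except a log2 fold change above 0.5, where it was 2. The shares of windows with an island within the gene's own chromosome were 17.4% for KMT2A, 32.8% for MLLT3, 21.0% for HOXA9 and HOXA10, 63.3% for MEIS1, 80.4% for MEF2C, 70.9% for MYB and 65.2% for CDK6. No gene's summed reads passed the test against islands of the same chromosome or within 5 Mb (Fisher's exact test, adjusted p from 0.29 to 0.83). The differences in log2 fold change against islands of the same chromosome and within 5 Mb were -0.046 and -0.078 for MLLT3, -0.017 and -0.11 for MEF2C, -0.13 and -0.14 for MYB, and 0.18 and 0.040 for CDK6. Within 20 kb of the genes there were 11 islands, at the same 4 genes, and 7 islands overlapped a gene. No paired analysis was possible because there is 1 pooled call and no value for any replicate, and for this reason no replicate could be left out. Counting intervals of the log2 fold change from these pooled reads reached 0 in 4 of the 10 islands, and in 8114 of all 32760.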
